A study of Mus musculus with 8 samples.

Results

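The cells described here are those that the authors' deposited annotation calls chondrocytes in a single-cell RNA isolate of mouse ankle and wrist joints. They were taken by that label alone and joined to the count matrices by library and cell barcode. There were 1441 such cells, 5.95% of 24227 annotated cells, and the 4 matrices held 47658 barcodes in all. The other annotated cells fell into 5 fibroblast classes (lining, Mmp3+, Il6+, Cd200+ and Pi16+; 21731 cells) and osteoblasts (1055 cells).

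Arthritic animals were of the strain B6-Tg(TNF)197Gkl and carried the human TNF transgene (hTNFtg197+). Each of them was given Il23mc over 9 days. Healthy animals were wild types labelled as untreated. Transgene and Il23mc are thus the same split, and their parts in any disease difference cannot be told apart. Animals were 8 to 10 weeks old. Viable CD45-negative cells made up 3 of the libraries, and each of these mixed 3 arthritic mice and 1 healthy mouse. The arthritic mice had no inhibitor in the first (called untreated here), an antibody against human TNF in the second (anti-TNF) and an antibody against mouse IL-17A in the third (anti-IL-17), so that treatment and library are the same split. The last library held FAP+ Pdpn+ sorted cells of 5 arthritic animals without inhibitor (FAP-sorted). Each animal was marked by its own hashtag antibody, 17 animals in all, and an animal is the replicate throughout.

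Chondrocytes are the cells of cartilage. In hyaline cartilage they secrete fibrils of collagens II, IX and XI and the large proteoglycan aggrecan, under control of the transcription factor SOX9. Tendon and ligament cells, the tenocytes, instead build collagen I fibres, use the transcription factors scleraxis and mohawk, and make tenomodulin, fibromodulin and thrombospondin 4. Fibrocartilage, as at the sites where tendons join bone, holds features of both.

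The class held 219 cells of healthy, 347 of untreated, 186 of anti-TNF, 518 of anti-IL-17 and 171 of FAP-sorted animals, with 15 to 218 cells per animal. Summed over its cells an animal had 180713 to 3487706 unique molecular identifiers (UMIs), and the median cell had 14231, beside 15328 in fibroblasts. Levels below are counts per 1000000 (CPM) of an animal's summed UMIs in the class. Because the wells were loaded with up to 25000 cells, cells of different animals or types can share a droplet. No barcode of the class occurred in more than 1 library. Only 3 cells of the class had 10 or more UMIs over the list of endothelial markers. As a reference for free RNA, 1755 barcodes outside the annotation that carried endothelial marker UMIs were used, with median depths of 8385 to 11266 UMIs per library. Their counts hold RNA of their own cells as well as free RNA, and these were not separated. UMIs of Y-linked genes were found in 65.1% to 86.0% of the cells, and of Xist in 4.40% to 13.8%, in 6 arthritic animals (untreated animal 2, anti-TNF animals 1 and 2, anti-IL-17 animal 1 and FAP-sorted animals 1 and 2), whereas the other 8 arthritic animals had 0% to 10.5% and 89.5% to 96.2%. The 3 healthy animals had Xist in 98.8%, 82.4% and 80.3% and a Y-linked UMI in 1 of 85, 20 of 68 and 8 of 66 cells (untreated, anti-TNF and anti-IL-17 library). The sexes these values point to are thus not balanced between groups, and no model had sex as a term. Leaving out the healthy cells with a Y-linked UMI ended the call of 1 named gene in the disease comparison, Dmkn. The annotated hashtag had the highest raw count in 24.7%, 8.82% and 1.52% of the healthy cells, in the same order of libraries. In each arthritic animal that share was 82.6% or more. By scaled counts it was at least 95.6% in each healthy animal. With only cells whose annotated hashtag had the highest scaled count, 1162 genes were called between untreated and healthy animals, in place of 1152. Whether healthy cells were assigned wrongly was not tested.

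Tendon genes stood high in the class and most genes of hyaline cartilage were close to 0. By the ratio to the fibroblast class in which a gene is highest, the leading genes of at least 50 CPM were, in order, keratocan (Kera, chromosome 10:97606879-97613692 in GRCm38), thrombospondin 4 (Thbs4, 13:92751590-92794818), Angptl7, a secreted angiopoietin-like protein, the cartilage proteoglycan aggrecan (Acan, 7:79053483-79115099) and tenomodulin (Tnmd, X:133850980-133865577). Collagen II (Col2a1, 15:97975602-98004695), collagen IX, Snorc, chondromodulin (Cnmd) and matrilin 1 were at or near 0. Apart from Acan, the defining genes of hyaline cartilage thus do not bear out the label of chondrocyte, and the class is called here by its annotation. These are descriptions without a test, because the annotation is itself a class made from expression, and they use the median over 17 animals of the log2 ratio to the fibroblast class in which the gene is highest (1 CPM added to both).

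Thbs4 stood at a median of 3359 CPM in the class (2339 to 6892 over 17 animals) and at 449 CPM in Mmp3+ fibroblasts, the highest fibroblast class. It was higher in the annotated chondrocytes in 17 of 17 animals, with a median log2 ratio of 2.95. Tnmd, a membrane protein of tendon cells, had 483 CPM (117 to 639.8) beside 129.6 CPM in Cd200+ fibroblasts, a log2 ratio of 1.71, and was higher in 17 of 17 animals. In every animal both genes therefore separated the class from the fibroblast class in which the gene was highest by median. Angptl7 had 1123 CPM (287 to 5103) beside 189 CPM in Cd200+ fibroblasts, a log2 ratio of 2.60 with 17 of 17 animals higher. Kera, a small leucine-rich proteoglycan, had the highest ratio at 3.58, but its level was low, 84.5 CPM with a range of 0 to 272, and 15 of 17 animals were higher.

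The 3 markers given for the class differed in how well they set it apart. Fibromodulin (Fmod, 1:134037254-134048277), a collagen-binding proteoglycan of tendon and cartilage, had 2568 CPM (1466 to 4884) beside 1443 CPM in Cd200+ fibroblasts, a log2 ratio of 0.74, and was higher in 17 of 17 animals. Chondroadherin (Chad, 11:94565047-94569127), a leucine-rich cartilage protein that binds cells, had 179.8 CPM with a range of 61.9 to 3416, and Cd200+ fibroblasts had 194 CPM. Its log2 ratio was 0.07 with 10 of 17 animals higher, so Chad did not mark the class across animals. Cilp2 (8:69880369-69887687), of the cartilage intermediate layer proteins, had 155 CPM (58.0 to 822) beside 119 CPM, a log2 ratio of 0.57, higher in 10 of 17 animals. The wide ranges of Chad and Cilp2 follow the split into healthy and arthritic animals, as the disease comparison shows. UMIs of all of Chad, Fmod and Cilp2 were present in 454 cells (31.5%), and UMIs of all of Thbs4, Fmod and Tnmd in 890 cells (61.8%).

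Of 14 listed tendon and ligament genes, 12 reached 50 CPM on average. Of these, 8 were above every fibroblast class, 5 of them at least 2-fold, with a median log2 ratio of 0.66. The list, which holds Angptl7, was chosen with earlier results of these data known, so its share is a description and no test of identity. Over all 2473 genes of at least 50 CPM, 348 (14.1%) were above every fibroblast class, 14 at least 2-fold, and the median was -0.23. Cartilage lists also had larger shares than all genes, but fewer members at that level: 4 of 8 proteoglycans and matrix proteins (2 at least 2-fold; median 0.03; 20 listed), 1 of 2 collagens (8 listed) and 2 of 3 chondrocyte transcription factors (11 listed) were above every fibroblast class. The tendon genes that were lower were Tppp3 (log2 ratio -2.64), collagen XII (Col12a1, -1.15), tenascin C (Tnc, -0.77) and collagen XIV (Col14a1, -0.51). Scleraxis (Scx) had 47.8 CPM, a log2 ratio of 0.87 to Cd200+ fibroblasts and 14 of 17 animals higher. Mohawk (Mkx) had 30.0 CPM, a ratio of 0.32 and 12 of 17 animals higher. Collagen I (Col1a1) had 7623 CPM and a ratio of 1.08, although annotated osteoblasts had 13719.7 CPM.

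Of the cartilage genes, several that tendon and other fibrous tissues also make were well measured. Aggrecan (Acan) had 53.3 CPM (4.87 to 105) beside 8.80 CPM in Cd200+ fibroblasts, a log2 ratio of 2.46, and was higher in 14 of 17 animals. Cilp had 733 CPM (481 to 1879.8), a log2 ratio of 1.67, higher in 17 of 17 animals. Cartilage oligomeric matrix protein (Comp), made by tendon as well as cartilage, had 3179 CPM beside 3856 CPM in Cd200+ fibroblasts, a log2 ratio of -0.31. Sox9 had 199 CPM, beside 172 CPM in lining fibroblasts. Lubricin (Prg4), secreted at joint surfaces, had 4697 CPM beside 62223 CPM in lining fibroblasts, a log2 ratio of -3.48 with 0 of 17 animals higher. Collagen XI alpha 1 (Col11a1) reached 245 CPM. Its partner chain Col11a2 had 7.0 CPM and was higher than in the highest fibroblast class in 16 of 17 animals.

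The genes that define hyaline cartilage gave few counts. The median level over animals was 1.22 CPM for Col2a1 (0 to 374), 0.350 CPM for Col9a1, 3.78 CPM for matrilin 3 (Matn3), 5.29 CPM for Ucma and 12.7 CPM for the link protein Hapln1. It was 0 for Col9a2, Col9a3, Snorc, Cnmd, Matn1 and the hypertrophic collagen Col10a1. Of 761 Col2a1 UMIs in the class, 717 (94.2%) lay in 1 cell of an untreated animal, and the next highest cell had 13. That cell, of 40831 UMIs, also held 146 UMIs of Acan, 81 of Col9a1, 92 of Cnmd and 157 of Ucma, and 19 of Tnmd. Without it the pooled Col2a1 level of the class went from 33.5 to 1.94 CPM.

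**Figure D1:**
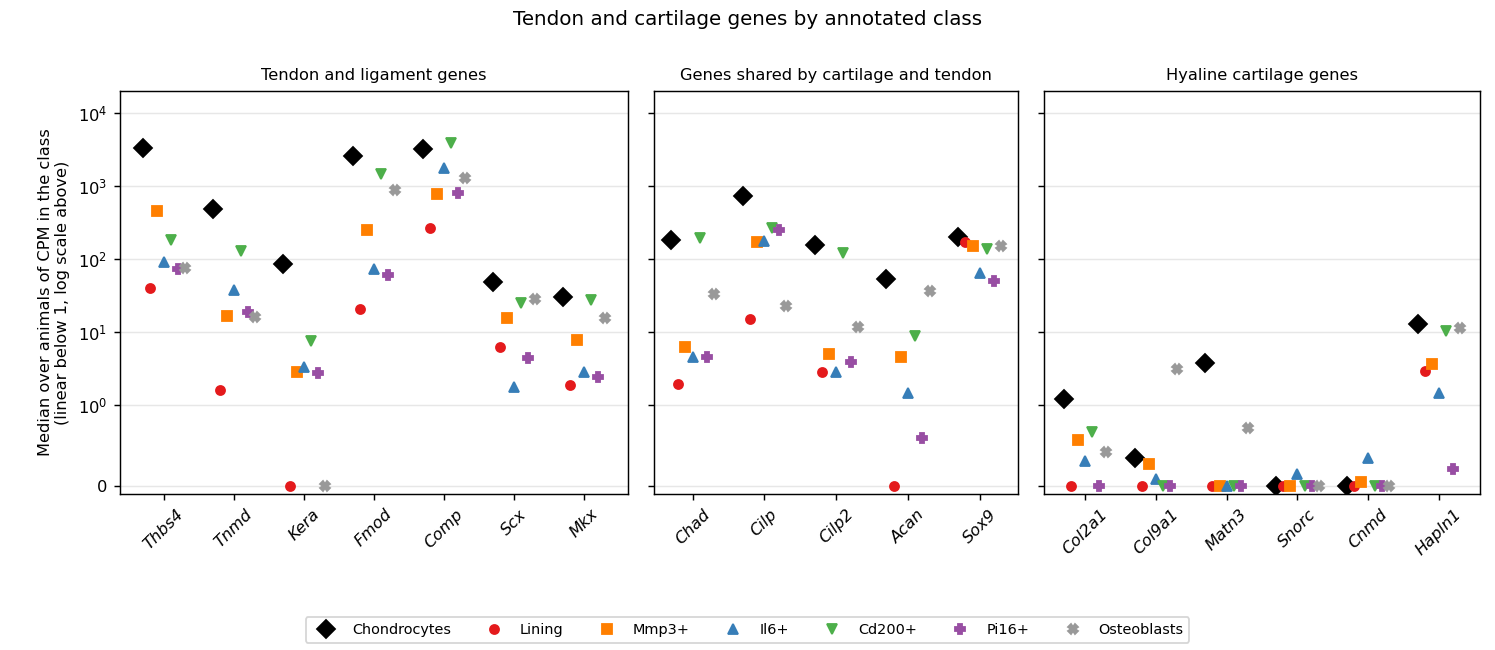
Median over animals of CPM (linear below 1, log scale above) of tendon genes, genes shared by cartilage and tendon, and hyaline cartilage genes in each annotated class; black diamonds are the cells annotated as chondrocytes and the other symbols the 5 fibroblast classes and osteoblasts. Thbs4 at 3359 CPM and Tnmd at 483 CPM stand above the other classes, whereas Col2a1 stands at 1.22 CPM and Snorc and Cnmd at 0.

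A UMI of Thbs4 was found in 89.3% of the cells and in 23.1% of the endothelial-marked barcodes, at 14231 against 8385 to 11266 UMIs of median depth. The shares were 67.9% and 5.40% for Tnmd, 92.8% and 23.5% for Fmod, 45.5% and 5.74% for Chad, and 52.9% and 2.58% for Cilp2. For Col2a1 they were 1.53% and 0.689%. The level in these endothelial-marked barcodes was at most 151 CPM for Thbs4 and 21.7 CPM for Tnmd, below the lowest animal of the class for Thbs4 (2339 CPM) and Tnmd (117 CPM).

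Other genes among the 20 with the highest ratio were the secreted proteins C1qtnf3 (log2 ratio 1.58), Cthrc1 (1.36), clusterin (Clu, 1.07) and Mfap4 (0.97), the ion transport regulator Fxyd6 (1.33), the Wnt inhibitor Wif1 (0.74) and matrix Gla protein (Mgp, 0.73; 10536 CPM), which restrains calcification of cartilage. Mgp was higher in 16 of 17 animals and Fxyd6 in 17 of 17. Cochlin (Coch) ranged from 0 to 2677 CPM between animals. F2r, the thrombin receptor, had a log2 ratio of 1.47. The endothelial-marked barcodes held 71.2 to 154 CPM of it, above the 55.4 CPM of the class. Whether that was their own or free RNA was not tested. Among the classes, those nearest were Mmp3+ and Cd200+ fibroblasts, from which 6.53% and 7.10% of genes differed at least 2-fold, beside 8.99% for Il6+, 11.7% for Pi16+, 11.7% for osteoblasts and 14.8% for lining cells.

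Barcodes with counts of hyaline cartilage genes were present in the isolate, by number mostly outside the class. At least 20 UMIs over 10 hyaline genes were found in 108 barcodes. Of these, 68 lay among 23431 barcodes outside the annotation and 12 among the 1441 annotated chondrocytes. Another 15 lay among 9770 Mmp3+ fibroblasts and 10 among 1055 osteoblasts. As a share of the barcodes screened, those that passed were more frequent in the class and in osteoblasts than outside the annotation. The screen can be passed with little Col2a1: 5 osteoblasts of the FAP-sorted library passed, and no osteoblast there had more than 1 Col2a1 UMI. At least 3 Col2a1 UMIs were found in 66 barcodes outside the annotation and 4 of the class. They were also found in 12 Mmp3+ fibroblasts and 3 osteoblasts. Summed over the 68, Col2a1 stood at 3708 CPM, Acan at 1443 CPM, Snorc at 1357 CPM and Sox9 at 1549 CPM. Their Chad level was 2413 CPM and that of Cytl1, a secreted cartilage protein, 3441 CPM, while Thbs4 stood at 438 CPM and Tnmd at 35.4 CPM. Since the Col2a1, Acan and Snorc levels chose these barcodes they are a description.

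The class was a larger share of the annotated cells in healthy than in arthritic animals. It made up 10.0%, 10.8% and 12.9% of the cells of the healthy animals, a mean of 11.2% ± 1.5 (SD, n = 3), and 6.50% on average over the 9 arthritic animals of the same libraries. The difference of 4.74 percentage points within libraries had an exact two-sided permutation p of 0.0156 over 64 arrangements, the smallest possible, and 0.0179 adjusted over the 3 share tests. All 3 healthy animals were above all 9 arthritic animals. Untreated animals had 8.90%, 4.93% and 7.53%, anti-TNF animals 3.97%, 4.67% and 2.40%, and anti-IL-17 animals 9.23%, 7.38% and 9.47%. The 3 arthritic groups differed (F = 8.76, exact permutation p = 0.0179 over 1680 assignments, adjusted 0.0179). The lowest anti-IL-17 value lay above every anti-TNF value, and the untreated animals overlapped with the anti-IL-17 ones but not with the anti-TNF ones.

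The FAP+ Pdpn+ sort held fewer cells of the class, 3.66%, 4.13%, 1.42%, 1.02% and 3.88%, which is 4.30 percentage points below the untreated animals (exact two-sided permutation p = 0.0179 over 56 splits, the smallest possible, adjusted 0.0179). All 5 values lay below the 3 untreated values. The sort gates on surface proteins and can itself set this share. Without untreated animal 1 the exact p of the sort comparison was 0.0952, and without 1 healthy animal the first difference was 3.56 to 5.67 points with an exact p of 0.0625, the smallest then possible. The F value ranged from 5.21 to 17.5 without 1 of the 9 animals, and its exact p was 0.05 or more, up to 0.075, in 6 of these 9 fits. A share also falls when other cells increase, and fewer cells and less capture of them cannot be told apart.

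**Figure D2:**
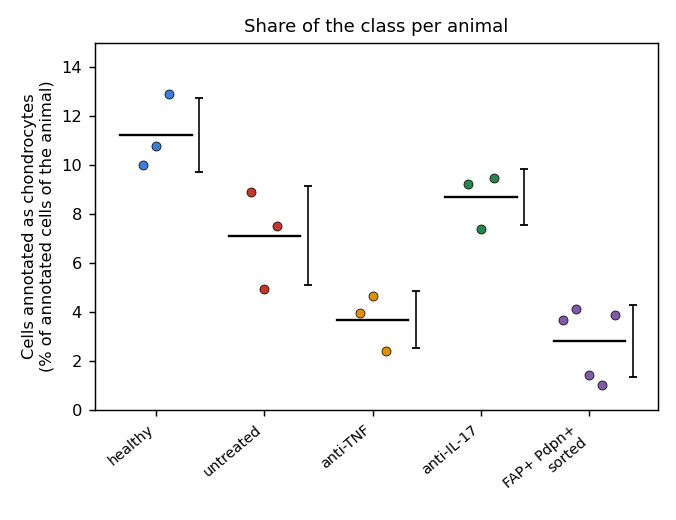
Cells annotated as chondrocytes as a percentage of the annotated cells of each animal (points), with group mean (line) and SD (bar beside it). The 3 healthy animals lie at 10.0% to 12.9%, the 3 anti-TNF animals at 2.40% to 4.67%.

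Clustering of the 1441 cells alone gave 5 clusters of 355, 354, 273, 269 and 190 cells, described here by their leading genes without a cell type name. Healthy cells sat apart: 153 of 219 (69.9%) were in cluster 5, led by Cytl1, Slurp1, Ackr2, Npy and Htra4, and 47 were in cluster 2. Cluster 5 held 4.32% of untreated, 2.69% of anti-TNF, 2.70% of anti-IL-17 and 1.75% of FAP-sorted cells. Its Chad level was 2949 CPM, beside 91.1 to 471 CPM in the other clusters. Cluster 2, led by the interferon-induced Ifit1 and Ifit3 and by Orm2 and Col11a2, had the highest Thbs4 level, 6491 CPM, and held 41.9% of the anti-TNF cells. Cluster 1, whose leading genes include Tagln, Lrrc15, Tnn and Mstn, held 42.5% of anti-IL-17 and 33.3% of FAP-sorted cells. Cluster 4, led by Penk, Ptgs2 and Lif, held 32.6% of untreated cells, and cluster 3, with the heat shock genes Hspb1 and Hspa1a, 22.8%. Cluster sizes are not compared between groups, because the genes that define the clusters differ between them.

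In untreated arthritic animals Chad, Cilp2, Myoc and Cytl1 were far lower in the class than in healthy animals and the proteases Mmp3 and Mmp13, complement C3 and the chitinase-like Chil1 were higher, while the tendon genes Thbs4 and Tnmd overlapped with the healthy animals. This comparison sets the summed cells of the class in untreated animals against those in healthy animals. Cluster 5 held 69.9% of the healthy and 4.32% of the untreated cells. A change in which cells were caught and a change within cells cannot be told apart here. Of 8958 genes tested, 622 (6.94%) were higher and 530 (5.92%) lower in untreated than in healthy animals by edgeR's quasi-likelihood test at an adjusted p under 0.05, which is the test of every gene result below. The median over all genes was -0.01 on the log2 scale. The shares of 6.94% and 5.92% are the background for the counts of listed genes in this comparison.

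Chad stood at 3416, 2183 and 3270.1 CPM in the healthy animals and at 179.8, 85.6 and 120.2 CPM in the untreated animals. The groups were far apart, with a log2 fold change of -4.47 ± 0.35 (SE; adjusted p = 4.4e-06). Cilp2 stood at 822, 652 and 732 CPM against 185, 61.1 and 132 CPM, a log2 fold change of -2.49 ± 0.35 (adjusted p = 3.0e-04), again without overlap. Fmod, the third marker, stood at 3741, 4884 and 3642 CPM against 2250.3, 1971 and 2505 CPM. The groups did not overlap, but the fold was smaller, -0.82 ± 0.20 on the log2 scale (adjusted p = 0.0158), and with library as a term it was -0.60 (adjusted p = 0.24).

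Of 12 cartilage proteoglycans and matrix proteins tested, 6 fell and 1 rose, with a median log2 fold change of -0.27. Beside Chad and Cilp2 these included Cytl1 (280.1 ± 104 CPM in healthy, 1.3 ± 1.3 CPM in untreated animals; SD, n = 3 each; log2 fold change -7.50 ± 0.70), Cilp (1667 to 688 CPM, -1.22), Comp (4844 to 2956 CPM, -0.65) and Prg4 (7747 to 4127 CPM, -0.86). The 1 that rose was matrilin 4 (Matn4). The falls of Comp and Prg4 had adjusted p of 0.0428 and 0.0463, and both lost their call with library as a term and when any of the untreated animals was left out. Aggrecan was 40.4 CPM in healthy and 81.4 CPM in untreated animals (log2 fold change 1.10, adjusted p = 0.114) and Sox9 263 and 171 CPM (-0.57, adjusted p = 0.0968), and neither passed the test.

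Of 14 tendon genes 1 rose and 3 fell, with a median of 0.06, and the 1 is near the share over all genes. Thbs4 stood at 3182, 4093 and 2954 CPM in healthy and 3397, 2348 and 3498 CPM in untreated animals, overlapping values with a log2 fold change of -0.10 ± 0.20 (adjusted p = 0.809). Tnmd stood at 330.0, 627 and 521 CPM against 617, 294 and 617 CPM (0.09 ± 0.35, adjusted p = 0.914), also overlapping. The signs of these differences turned with library as a term or with 1 animal left out. Kera (0.03), Scx (-0.33), Mkx (-0.43) and Col1a1 (0.50) did not pass the test either. The tendon genes that fell were Fmod, Tppp3 (231 to 29.3 CPM, log2 fold change -2.91) and Angptl7 (3386 to 1019 CPM, -1.68). Col14a1, a fibril-associated collagen, rose from 65.3, 53.8 and 35.7 CPM to 552, 388 and 625 CPM, a log2 fold change of 3.39 ± 0.53, and with library as a term it was 3.13 (adjusted p = 0.085).

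**Figure D3:**
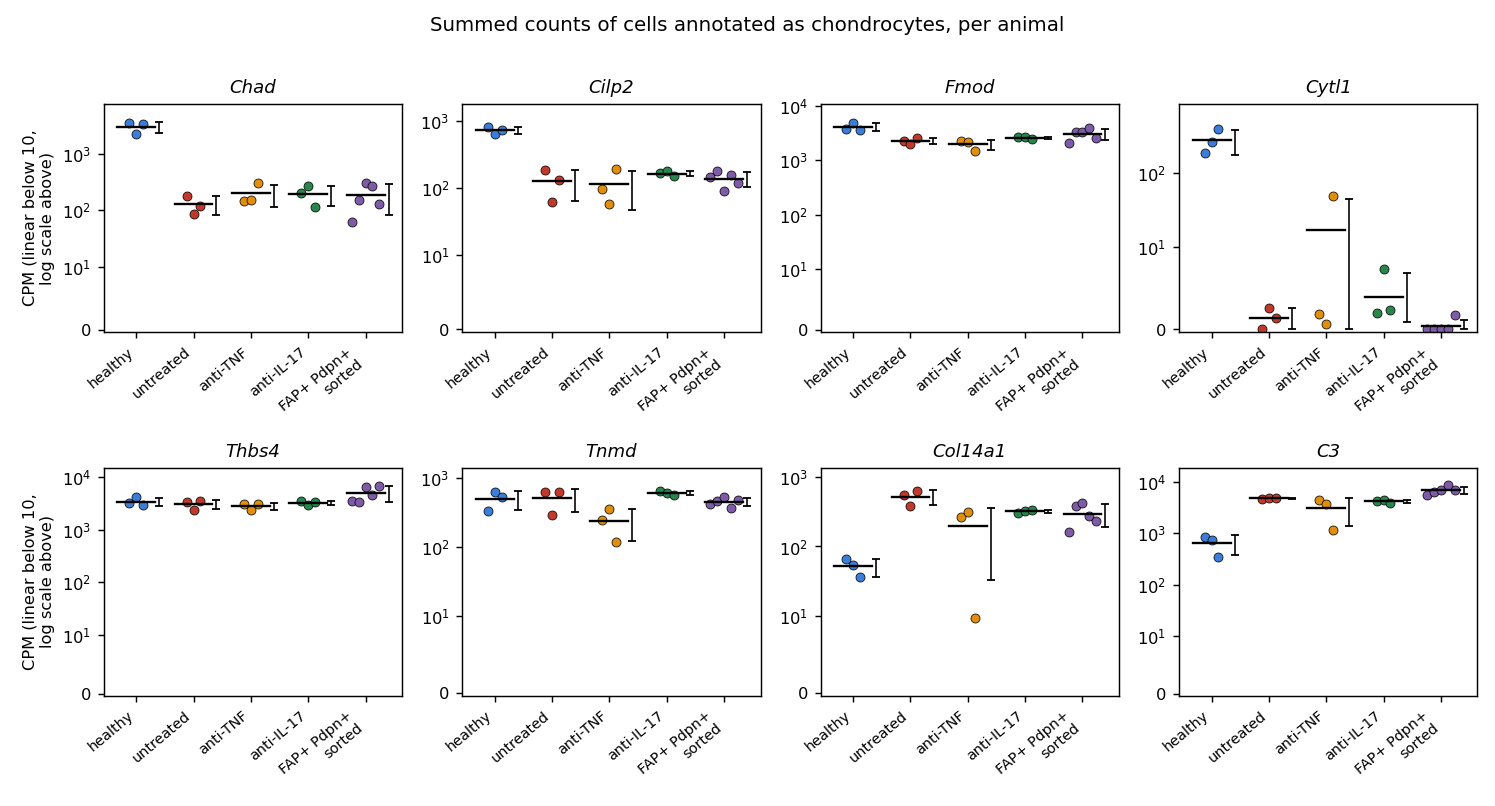
CPM in the annotated chondrocytes of each animal (points; linear below 10, log scale above) for 8 genes, with group mean (line) and SD (bar beside it). Chad, Cilp2 and Cytl1 are highest in the healthy animals, Thbs4 and Tnmd overlap between healthy and untreated animals, and Col14a1 and C3 are higher in the untreated animals.

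Transcripts of other matrix genes differed as well. Of 12 small leucine-rich proteoglycans, 2 rose and 5 fell, with a median of 0.02. Lumican (Lum; log2 fold change 1.71) and biglycan (Bgn; 1.16) rose, whereas decorin (Dcn; 26032 to 12280.0 CPM, -1.03), Prelp (-1.41) and osteomodulin (Omd) fell along with Fmod and Chad. The glycosaminoglycan enzymes Csgalnact1 (3.37) and Chst11 (2.06) and the hyaluronan synthase Has2 (1.53) rose, 4 of 12 synthesis genes having risen and 0 fallen. Of 16 collagen processing genes 1 rose and 4 fell, among them the procollagen C-proteinase enhancer Pcolce2 (501 to 45.7 CPM, -3.39).

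Of 18 matrix degradation genes, 7 rose and 2 fell, with a median of 0.55. Stromelysin 1 (Mmp3) went from 887 ± 176 to 4605 ± 682 CPM (SD, n = 3 each; log2 fold change 2.43 ± 0.42, adjusted p = 0.00138), and collagenase 3 (Mmp13), which cleaves collagen II, from 104 to 654 CPM (2.71). Mmp14 (2.2), which activates other proteases, Mmp19 (3.41), Mmp2 (1.69) and the collagen-cleaving cathepsin K (Ctsk; 1.20) rose too, and the protease inhibitor Timp3 fell (-1.86). With library as a term Mmp3 and Mmp13 had adjusted p of 0.11 and 0.15.

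Of 20 IL-17 response and acute phase genes, 9 rose and 0 fell, with a median of 0.38. Complement C3 stood at 846, 747 and 340.0 CPM in healthy and 4645, 4786 and 4894 CPM in untreated animals, a log2 fold change of 2.95 ± 0.40 (adjusted p = 3.0e-04) without overlap. Complement factor B (Cfb; 2.64), haptoglobin (Hp; 1.89), the iron-binding lipocalin Lcn2 (1.48), the neutrophil attractant Cxcl5 (2.10), the monocyte attractant Ccl7 (1.29), Il6 (1.19) and the granulocyte factor Csf3 (2.53) rose. Serum amyloid A3 (Saa3) had 2504 ± 1822 CPM in healthy and 3197 ± 1058 CPM in untreated animals and did not pass (0.39, adjusted p = 0.646). Endothelial-marked barcodes of the untreated library held 5629 CPM of Saa3 and 1419.5 CPM of Csf3, more than the class, and the part of free RNA in these 2 genes was not tested. Of 19 TNF and NF-kB feedback genes 5 rose, among them the cytokine Lif (3.11), the prostaglandin synthase Ptgs2 (2.86), the adhesion molecule Vcam1 (2.28) and the hyaluronan-binding Tnfaip6 (2.01), and 2 fell. Of 28 interferon response genes 3 rose, the class I MHC proteasome subunits Psmb8 and Psmb9 and the antiviral Bst2, and 1 fell, Irf9. These counts are near the shares over all genes, 6.94% higher and 5.92% lower.

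The named genes of highest fold were Chil1, a chitinase-like glycoprotein made by inflamed cartilage and synovium (571 ± 97.0 against 12.1 ± 8.97 CPM; log2 fold change 5.58 ± 0.42, adjusted p = 4.3e-06), the adhesion molecule Chl1 (4.30), the proteoglycan Srgn (4.27), the interferon-inducible Ifi203 (4.10), the cytochrome Cyp1b1 (3.98), the xylosyltransferase Gxylt2 (3.91), Cthrc1 (3.84) and the sodium channel Scn7a (3.84). With library as a term Srgn, Ifi203 and Cthrc1 had adjusted p of 0.063, 0.074 and 0.052, and in cluster 2 Srgn (1.43), Cthrc1 (1.78) and Gxylt2 (1.35) had smaller folds without a call. Parm1 was also called higher, at 24.9 CPM, but had 2 UMIs in all healthy animals together. Igf1, a growth factor that drives proteoglycan synthesis (2.61), the Wnt modulator Sfrp2 (3.79), the chemokine Cxcl12 (2.33) and Mgp (1.39) rose as well.

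Lowest were Cytl1, S100a5 (-6.43), Slurp1 (-5.95), Gm41724 (-5.16), osteocalcin (Bglap; -4.44), Dmkn (-4.23), Krtdap (-4.15), Myoc (3222 to 182 CPM, -4.07), the prolyl hydroxylase Egln3 (-3.61) and neuropeptide Y (Npy; -3.61). With library as a term Dmkn was -1.17 (adjusted p = 0.69). Osteopontin (Spp1; -2.81), Wif1 (-2.47), the growth factor binding protein Igfbp6 (-2.22) and gelsolin (Gsn; -2.05) fell too. Marker sums of other cells moved with this comparison. The 14 synovial fibroblast markers summed to 9747 to 11679 CPM in healthy and 3899 to 5333 CPM in untreated animals. Gsn is itself a member and made up 8458 to 9859 CPM of the healthy sums, and of 13 members tested 4 rose (Cxcl12, Pdpn, Fap and Pdgfra) and 5 fell. The sums were, for 8 keratinocyte markers, 70.9 to 160.1 against 17.4 to 133 CPM, for 6 Schwann and nerve markers 32.1 to 52.5 against 7.56 to 21.9 CPM, and for 9 osteoblast markers 50.1 to 258 against 31.7 to 50.6 CPM. Their part in the falls of Slurp1, Dmkn, Krtdap, Npy and Bglap was not tested.

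The number of genes called depended on which healthy and untreated animals were used and on a library term. It was 1152 in all, 370 when the healthy animal of the untreated library stood alone, 354 with library as a term (330 of them among the 1152), and 691, 706 and 725 without the healthy animal of the anti-IL-17 library, that of the untreated library and untreated animal 3. Without untreated animal 2, whose cells mostly held Y-linked UMIs, it was 859. Within cluster 2, the cluster where healthy and arthritic cells both occurred in number, 22 of 3900 genes were called. Chad was lower there as well (log2 fold change -2.41, adjusted p = 0.0395) and C3 higher (2.09, adjusted p = 0.0247), while Col14a1 (0.07) and Spp1 (-0.15) did not differ detectably. Of 27 reported genes with a value in cluster 2, which rests on fewer cells per animal, 19 lost their call, 3 changed sign and 5 stayed the same.

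When all 9 arthritic animals were set against the healthy animals within their libraries, 749 genes (8.36%) were higher and 680 (7.59%) lower. Treated animals count as arthritic here, and the comparison shares all healthy and untreated animals with the one above. Chad had a log2 fold change of -4.09, Cilp2 of -2.45, Cytl1 of -6.44, C3 of 2.73, Chil1 of 5.47 and Col14a1 of 2.79. Thbs4 (-0.09) and Tnmd (-0.19) were not called. Interferon response genes rose in 11 of 28 cases (median 1.58; 0 fell), and of 20 IL-17 response genes 7 rose and 0 fell. B2m, the light chain of MHC class I, rose (1.59, adjusted p = 5.3e-04). Without the healthy animal of the untreated, the anti-TNF or the anti-IL-17 library 527, 950 and 765 genes were called in place of 1429.

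The disease difference was not the same as in fibroblasts of the same animals. The model tested the difference between the 2 responses, and of 11810 genes 418 (3.54%) had a higher and 263 (2.23%) a lower log2 change in the annotated chondrocytes than in the 5 fibroblast classes summed. Thbs4 rose in the summed fibroblasts, from 67.7, 77.1 and 53.5 CPM to 279.6, 242 and 292 CPM. The responses differed by -2.32 ± 0.20 (log2, adjusted p = 3.5e-06). Mmp3+ cells, the fibroblast class highest in Thbs4, were 3.35% of the healthy and 39.1% of the untreated fibroblasts. The part of this make-up in the rise was not tested. Fmod rose in fibroblasts (1.18) and fell in the class (difference -1.91 ± 0.37, adjusted p = 0.00392). Chad fell in both, and more in the class (difference -1.59, adjusted p = 4.3e-04).

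Acute phase genes were the other large contrast. Saa3 in fibroblasts was 2483, 3147 and 903 CPM in healthy and 45739, 39637 and 38331 CPM in untreated animals, values that lie far apart. In the annotated chondrocytes Saa3 overlapped between groups. Its level there in untreated animals was below that of the endothelial-marked barcodes of their library, and the part of free RNA was not tested. The responses differed by -3.89 ± 0.29 (adjusted p = 7.5e-07). The difference was -2.33 for Lcn2, -3.46 for Saa2, -3.60 for the B-cell attractant Cxcl13, -3.79 for Spp1 and -6.30 for the chemokine Ccl5. For Has2, which rose in the class and fell in fibroblasts, it was 3.28. Genes with the highest differences included the imprinted transcript H19 (4.36), Pi15 (4.25), Lsamp (3.91), Scn7a (3.81) and elastin (Eln; 3.66). Of 31 interferon response genes 0 had a higher and 8 a lower change in the class, of 21 IL-17 response genes 0 and 4, and of 14 tendon genes 1 and 4. For C3 (0.27, adjusted p = 0.721) and Il6 (0.17, adjusted p = 0.813) no difference between the responses was detected. Healthy fibroblasts were 43.2% Pi16+ and 3.35% Mmp3+ cells and untreated ones 1.14% and 39.1%, so the summed classes differ in make-up. Against Cd200+ fibroblasts alone, 230 genes were called in place of 681 and 12 of the 20 named genes lost their call, among them Ccl5, Cxcl13, Saa2 and Pi15. Without the healthy animal of the untreated library, that of the anti-IL-17 library or untreated animal 3 the count was 344, 415 and 441.

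**Figure D4:**
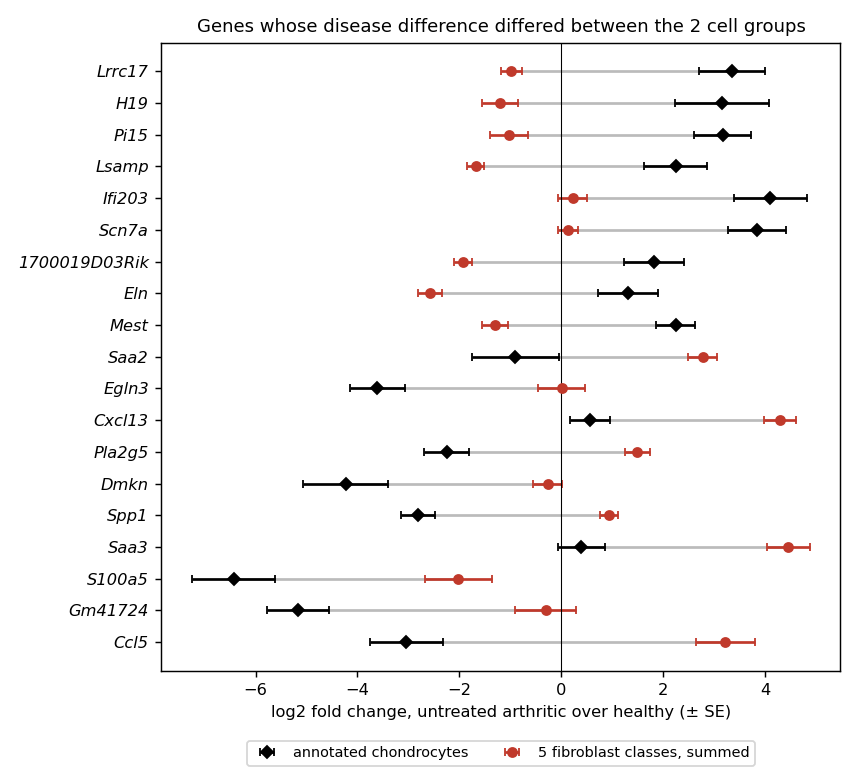
Log2 fold change (± SE) of untreated over healthy animals in the annotated chondrocytes (diamonds) and in the summed fibroblast classes (circles) for 19 of the genes named by the size of the difference between both. H19 and Pi15 rose in the former, by 3.15 and 3.17, and stood at -1.20 and -1.03 in the latter, and Saa3 and Cxcl13 rose in fibroblasts without a called change in the annotated chondrocytes.

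Anti-TNF animals showed no gene past the threshold against untreated animals. Of 8958 genes 0 were higher (0%) and 0 lower (0%) by edgeR's quasi-likelihood test, with a smallest adjusted p of 0.0572 and 875 genes under an unadjusted p of 0.05. DESeq2 called 40 genes. Chad was 147, 154 and 297 CPM with anti-TNF against 179.8, 85.6 and 120.2 CPM without, overlapping values (log2 fold change 0.62 ± 0.33, adjusted p = 0.579), and far below the healthy animals. Fmod (-0.12), Cilp2 (-0.26), Thbs4 (-0.07), Mmp3 (-0.47) and C3 (-0.53) overlapped or did not pass. The interferon response list had a median of 1.12 over 28 genes, beside -0.01 over all genes, and 0 of 28 passed. Cxcl10, an interferon-induced T-cell attractant, was 829.9, 315 and 1558 CPM against 51.4, 94.5 and 262 CPM, without overlap (2.69, adjusted p = 0.185). B2m was 2531 against 1184 CPM (1.14, adjusted p = 0.180). By DESeq2 these 2 genes had adjusted p of 0.043 and 0.0084. Endothelial-marked barcodes held 1206 CPM of Cxcl10 in the anti-TNF library and 688 CPM in the untreated library. One anti-TNF animal had only 22 cells of the class. Without untreated animal 2, 4 genes were called (Rgs2, Gprc5a, Serpina3m and Snhg9) and without that anti-TNF animal 1, Creb5.

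With anti-IL-17, H2-K1, H2-D1 and B2m, which encode MHC class I chains, were higher than in untreated animals and Mest, Fgf7 and the chemokine Cxcl13 lower. Of 8958 genes 12 (0.134%) were higher and 9 (0.100%) lower. The class I heavy chain H2-K1 was 938, 2238 and 1796 CPM with anti-IL-17 against 411, 451 and 583 CPM without. This is 1.76 ± 0.29 on the log2 scale (adjusted p = 0.0145), the groups did not overlap, and the healthy animals stood at 252, 307 and 347 CPM. H2-D1 rose likewise (2405 against 765 CPM; 1.63, adjusted p = 0.00704), as did B2m (3502 against 1184 CPM; 1.55, adjusted p = 0.0145) and the nearly identical class I genes H2-Q6 (3.03) and H2-Q7 (2.87), between which reads may be split uncertainly. B2m was the 1 of 28 interferon response genes that passed, with a list median of 1.15. Endothelial-marked barcodes held 1689 CPM of H2-K1 in the untreated and 2378 CPM in the anti-IL-17 library.

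Ccl5, a T-cell attractant, rose from 3.02, 1.57 and 1.29 CPM to 46.4, 15.1 and 38.4 CPM (4.16 ± 0.58, adjusted p = 0.00571). Endothelial-marked barcodes of the anti-IL-17 library held 56.8 CPM, more than the class, and the part of free RNA was not tested. Smooth muscle actin (Acta2), a contractile gene, rose from 29.5 ± 6.74 to 90.6 ± 36.2 CPM (SD, n = 3 each; 1.58, adjusted p = 0.0105). Mural cell markers, 8 genes, summed to 143 to 256 CPM against 92.1 to 96.0 CPM, and their part in the rise of Acta2 was not tested. The pericyte transcription factor Foxs1 (1.90), Cys1 (1.33) and the lysophospholipase D Enpp2 (autotaxin; 579 against 299 CPM, 0.93) also rose.

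The genes that fell were Cxcl13 (37.3 to 7.12 CPM, -2.32), the imprinted Mest (24.5 to 5.39 CPM, -2.20 ± 0.29, adjusted p = 0.00485), the proteoglycan-cleaving protease Adamts9 (-1.88), the fibulin Efemp1 (-1.80), lipoprotein lipase (Lpl; -1.66), the keratinocyte growth factor Fgf7 (126 to 49.2 CPM, -1.38), Ppm1l (-1.35), the noncoding RNA Meg3 (-1.25) and the polymerase subunit Rev3l (-1.01). Of 20 IL-17 response genes 0 passed, with a median of -0.20; Il6 was 619 against 1039.7 CPM (-0.78, adjusted p = 0.193) and Lcn2 608 against 1135 CPM (-0.91, adjusted p = 0.447). Chad (0.58, adjusted p = 0.50), Cilp2 (0.37), Fmod (0.18), Thbs4 (0.06) and Tnmd (0.22) did not pass. With library as a term, which rests each side on 1 healthy animal, 0 genes were called by edgeR and 415 had an unadjusted p under 0.05. Without anti-IL-17 animal 2 or untreated animal 2 the count was 9 and 12, and without the anti-TNF animal of 22 cells, which shares the estimate of spread, it was 100.

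**Figure D5:**
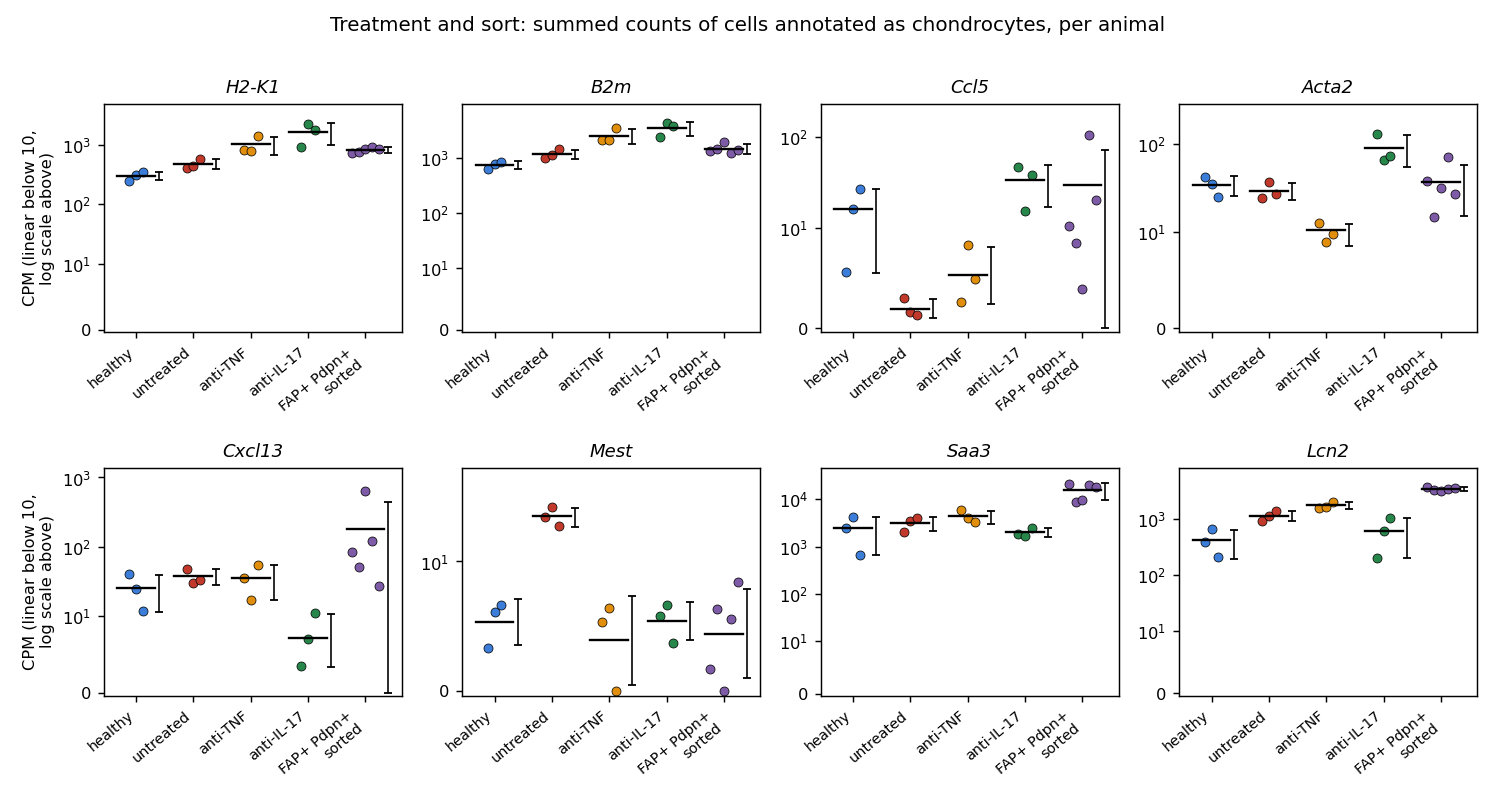
CPM in the annotated chondrocytes of each animal (points; linear below 10, log scale above) for 8 genes named in the treatment and sort comparisons, with group mean (line) and SD (bar beside it). H2-K1, B2m and Acta2 are highest with anti-IL-17, Mest is highest in the untreated animals, and Saa3 and Lcn2 are highest in the FAP-sorted animals.

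Set against each other, anti-IL-17 and anti-TNF animals differed in 7 genes, 4 higher (0.0447%) and 3 lower (0.0335%) with anti-IL-17. Acta2 was 132, 65.8 and 74.0 CPM against 12.4, 8.92 and 9.74 CPM, far apart, with a log2 fold change of 2.99 ± 0.34 (adjusted p = 8.0e-04). Enpp2 was 579 ± 40 against 171 ± 21.7 CPM (1.63, adjusted p = 8.0e-04), and the matrix protein Ecm2 (1.29) and syndecan 2 (Sdc2; 1.13) were also higher. The protease inhibitor Serpina3m (-1.91), the nuclear receptor Nr2f2 (-1.65) and ferritin heavy chain (Fth1; 15299.9 against 28493 CPM, -0.98) were lower. The anti-IL-17 animals are the same in both comparisons. Without the anti-TNF animal of 22 cells 67 genes were called, without anti-IL-17 animal 2 only 2 were, and without anti-TNF animal 1, untreated animal 2 or untreated animal 3 it was 11 each.

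The response to treatment differed from that of fibroblasts in 1 gene per inhibitor. Under anti-TNF it was cyclin D1 (Ccnd1), at 42.3 against 18.5 CPM in the class and 20.7 against 38.1 CPM in fibroblasts, a difference of 2.19 ± 0.32 (log2; adjusted p = 0.0231; 1 gene higher, 0.00847%, and 0 lower, 0%, of 11810). Under anti-IL-17 it was Mest, which fell in the class and not in fibroblasts (4.79 against 4.42 CPM), a difference of -2.26 ± 0.35 (adjusted p = 0.0452; 0 higher, 0%, and 1 lower, 0.00847%). At an unadjusted p of 0.05 there were 818 and 538 genes. The call of Ccnd1 was lost against Cd200+ fibroblasts alone (1.94, adjusted p = 0.12) and without anti-TNF animal 2, untreated animal 1 or untreated animal 2, and that of Mest without any 1 of 7 animals.

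The FAP-sorted cells of the class had higher Saa1, Saa2, Saa3 and Lcn2, of the acute phase, and lower Col1a1 and Col1a2, the chains of collagen I, than the untreated cells. Of 5796 genes 60 (1.04%) were higher and 87 (1.50%) lower. Saa3 was 21491, 8808, 9919, 20142 and 18689.9 CPM in the 5 sorted animals against 2003, 3569 and 4018 CPM in the 3 untreated animals, without overlap, a log2 fold change of 2.38 ± 0.31 (adjusted p = 0.00118). Lcn2 was 3446 ± 247 (SD, n = 5) against 1135 ± 224 CPM (SD, n = 3; 1.68 ± 0.14, adjusted p = 5.7e-05). Saa2 (3.53), Saa1 (2.14) and the plasma glycoprotein Orm1 (4.41) rose as well, as did C3 (0.60), the neutrophil antimicrobial peptide gene Camp (3.06), the phospholipase Pla2g5 (1.65), the lactate transporter Slc16a3 (1.63), nitric oxide synthase 2 (Nos2; 1.62) and Mmp3 (0.69). Of 20 IL-17 response and acute phase genes 6 rose and 1 fell, with a median of -0.11 beside 0.02 over all genes. The reference for free RNA in the FAP-sorted library was 14 endothelial-marked barcodes, against 517 in the untreated library. It held 12521 against 5629 CPM of Saa3, 5047 against 925 CPM of Lcn2, 2487 against 4.68 CPM of Camp and 89.7 against 22.4 CPM of Slc16a3, which for the last 3 is more than in the class in the sorted library, and the part of free RNA was not tested. For Saa1 and Saa2 it held 0 and 5.98 CPM in the sorted library. The 6 neutrophil markers, of which Camp is 1, summed to 99.3 to 742 against 39.7 to 121 CPM, and their part in these rises was not tested.

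Of 14 tendon genes 0 rose and 3 fell, which were Col1a1 (4771 ± 954 against 9351 ± 396 CPM, -0.89), Col1a2 (-0.62) and Tnc (-1.02). Thbs4 (0.77, adjusted p = 0.107), Fmod (0.50), Chad (0.49), Cilp2 (0.23) and Tnmd (-0.10) did not pass. The growth factors pleiotrophin (Ptn; 254 to 59.5 CPM, -2.30) and Igf1 (-1.05), the muscle growth inhibitor myostatin (Mstn; -2.22), the proteoglycan Epyc (113 to 22.4 CPM, -2.17), tenascin N (Tnn; -2.45), the Wnt inhibitor Dkk2 (-1.99), Mest (-2.24), Has2 (-1.54), Ptgs2 (-1.71) and Cxcl3 (34.6 to 1.45 CPM, -4.03) fell. Skeletal actin (Acta1) had 0 UMIs of 2086770 in the sorted cells, which makes it at least 20.5-fold lower than the 29.5 CPM pooled over the untreated cells (floor of 3 counts over the group, counting error only). The 8 muscle markers summed to 0 to 2.11 CPM against 97.1 to 111 CPM, and endothelial-marked barcodes of the unsorted libraries held 38.2 to 111 CPM of Acta1. Sort and library are the same split and cannot be told apart. Without the FAP-sorted animal of 15 cells 86 genes were called, and 72, 82 and 84 without untreated animal 3, untreated animal 1 and FAP-sorted animal 5.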

How the data were processed

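RNA of ankle and wrist joint cells was measured in 4 droplet libraries (chemistry 3.1). The authors made the deposited UMI counts per gene and barcode with Cell Ranger 6.0.0, and 5.0.0 for the FAP+ Pdpn+ library, per the file headers. Version 6.0.6 and the build mm10 are listed in the submitters' processing notes. Hashtag counts were deposited in the same matrices, and the deposited annotation gives each kept cell's class and hashtag. The making of the classes and the treatment of doublets are not given in the sources used here; no doublet caller was run. The 9 other annotation columns were not used.

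Counts of annotated cells were summed per animal and class (at least 10 cells) and tested with edgeR 4.0.16 (filterByExpr, TMM, quasi-likelihood, Benjamini-Hochberg over all genes tested, threshold 0.05) in R 4.3.3. The 3 unsorted libraries were fitted together by group, so that groups share 1 estimate of spread; arthritic animals against healthy ones within libraries and the comparison with fibroblasts were separate models, the latter with animal as a block over paired sums. Shares were tested by exact permutation. Hashtag numbers recur in the treatment groups, but 1 of 9 same-number pairs correlated above 0.1, so numbers were not taken to pair animals. The class was clustered with scanpy 1.11.5 (2000 variable genes, 20 components, 15 neighbours, resolution 0.4). Gene positions are from GENCODE vM21 on GRCm38.

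Named genes were the 20 with the highest ratio to the fibroblast classes (at least 50 CPM), the 10 highest and 10 lowest log2 fold changes past the threshold (at least 20 CPM in 1 group), the 3 markers and members of 27 gene lists; 1 gene that the rule names is not reported here. The members and lists were chosen with earlier results of these data known. On simulated counts for untreated against healthy animals (8749 genes), 56.7% of genes changed by 1 on the log2 scale and 94.2% of those changed by 2 were recovered, with 2.56% of calls false. For anti-IL-17 against untreated animals (8730 genes) it was 64.9%, 98.1% and 5.17%. The counts were drawn from edgeR's own trended spread with no library or cluster differences and refitted by the same model. These rates therefore do not cover such differences in the data. Intervals and floors cover counting error only. Alternatives were DESeq2 1.42.0, other scaling, no filter, 2 groups only, library or replicate terms, stricter cell choices and leaving out each animal; use of cluster 2 alone and removal of healthy cells with a Y-linked UMI were added after seeing the data.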

Additional observations from a re-analysis of the deposited data

Results flagged for a closer look

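Of 28 values tested for outliers among the 5 FAP-sorted animals, 3 had a sample far from the others, where chance gives about 1 in 20. Orm1 was 106 CPM in FAP-sorted animal 5 and at most 22.1 CPM in the others. Camp was 694 CPM in the same animal and at most 199 CPM in the others. Slc16a3 was 77.5 CPM in FAP-sorted animal 4, which had 15 cells of the class, and at most 29.2 CPM in the others.

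The response to disease differed between the annotated chondrocytes and the summed fibroblasts, by the test of the difference itself, in each of the following genes. The difference on the log2 scale was 4.61 for the natriuretic peptide Nppc, 4.43 for Lrrc17, 4.36 for H19, 4.25 for Pi15, 3.91 for Lsamp, 3.84 for Ifi203, 3.81 for Scn7a, 3.78 for 1700019D03Rik, 3.66 for Eln, 3.58 for Mest and 3.28 for Has2. Lrrc17 had 3 UMIs in the healthy animals' cells of the class, so that its value depends on the prior count. It was -6.30 for Ccl5, -4.89 for Gm41724, -4.41 for S100a5, -3.89 for Saa3, -3.79 for Spp1, -3.72 for Dmkn, -3.69 for Pla2g5, -3.60 for Cxcl13, -3.59 for Egln3, -3.46 for Saa2, -2.33 for Lcn2, -2.32 for Thbs4 and -1.91 for Fmod. Under treatment it was 2.19 for Ccnd1 with anti-TNF and -2.26 for Mest with anti-IL-17. Against Cd200+ fibroblasts alone, 12 of the 20 genes named by the size of the disease difference lost their call, among them Ccl5, Cxcl13, Saa2 and Pi15.

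Outside the annotation, 68 of 23431 barcodes had at least 20 UMIs over 10 hyaline cartilage genes, beside 12 of 1441 in the annotated chondrocytes. They came from the untreated (26), anti-IL-17 (23), anti-TNF (12) and FAP-sorted (7) libraries, with median depths of 16507.5 to 27964 UMIs per library, and their animals were not analysed here.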

How the results depend on the processing

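Over 135 gene results, 2362 of 2639 alternative values stayed on their side of the threshold with the same direction, 262 lost their call, 4 gained one and 11 changed sign; the causes were not tested. Those that changed sign were, for untreated against healthy animals, Thbs4 (0.11 with only the untreated library's healthy animal, 0.09 with a library term, -0.22 to 0.11 without 1 animal, which includes 0.08 without untreated replicate 2), Tnmd (-0.84 in cluster 2, -0.16 to 0.38 without 1 animal, which includes -0.05 and -0.09 without untreated replicates 1 and 3), Saa3 (-0.04 to 1.12 without 1 animal), and in cluster 2 Comp (0.25) and Prg4 (0.59). None of these sign changes passed the test in its alternative. Counts of called genes moved by over 1.5 times as follows. For untreated against healthy animals (1152) it was 370 with only that healthy animal, 354 with a library term, 22 in cluster 2, and 691 to 1489 without 1 animal. Within libraries (1429) it was 60 in cluster 2 and 527 to 1887 without 1 animal. For anti-TNF (0) it was 40 by DESeq2, 258 without a filter, 1 with 2 groups only (Rian), 1 without the top 5% of cells by UMIs (Creb5) and 0 to 4 without 1 animal. For anti-IL-17 (21) it was 59 by DESeq2, 401 without a filter, 106 with 2 groups only, 0 with a library term and 9 to 100 without 1 animal. For anti-IL-17 against anti-TNF (7) it was 76 by DESeq2, 358 without a filter and 2 to 67 without 1 animal. For FAP-sorted animals (147) it was 86 with at least 20 cells, 389 without a filter and 72 to 126 without 1 animal. For the difference from fibroblasts, Cd200+ cells alone gave 230 (681), 11 (1, anti-TNF) and 8 (1, anti-IL-17), and leaving out 1 animal 344 to 909, 0 to 5 and 0 to 8. The share differences were 3.56 to 5.67 and -5.39 to -3.40 points and F 5.21 to 17.5 without 1 animal. Resolution 0.2 gave 3 clusters and 0.8 gave 10. With hashtag number as a replicate block the counts were 0, 21 and 5 for anti-TNF, anti-IL-17 and the 2 against each other; same-number pairs correlated at -0.09 to 0.11 and 1 of 9 animals correlated best with its own number. Depth limits the animals of 15 and 22 cells most.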

Other observations

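Growth factors and their antagonists moved in both directions between untreated and healthy animals. Of 22 tested in the annotated chondrocytes 3 rose and 8 fell, with a median log2 fold change of -0.57; over all genes 6.94% rose and 5.92% fell. Those that fell included the bone morphogenetic proteins Bmp2 (442 to 218 CPM, -0.97), Bmp4 (-0.94) and Bmp6 (-3.81), the transforming growth factor Tgfb1 (92.8 to 34.3 CPM, -1.39) and the binding protein Igfbp5 (1835 to 771 CPM, -1.2). The receptor Fgfr2 rose (1.32) beside Igf1 and Sfrp2. Of 14 cytokine receptors 2 rose and 0 fell, the interleukin 1 receptor Il1r1 (88.7 to 153 CPM, 0.83) and the interleukin 4 receptor Il4ra (1.31).

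Of 22 glycolysis and hypoxia genes 1 rose, Hif1a (0.71), and 4 fell, with a median of 0.03, and the 1 is near the share over all genes. Of 20 dissociation and immediate early genes, which mark stress during tissue digestion, Dusp1 rose (0.84) and 0 fell, near or below those shares. In the FAP-sorted cells 4 of 20 glycolysis and hypoxia genes were higher than in the untreated cells, the enzymes Pkm (0.85), Eno1 (0.91) and Gapdh (0.54) and the transporter Slc16a3, and Hif1a was lower (-0.82). The immediate early genes Zfp36 (-1.06) and Klf2 (-0.83) were lower there, 2 of 20; over all genes 1.04% were higher and 1.50% lower in the sorted cells.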
